A study of Mus musculus with 3 samples.

Results

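The genes described here are 36 members of the cell cycle programme, taken by symbol from the 32285 genes listed in each matrix. They comprise 15 S-type members, which act in the entry into and the course of DNA replication, and 21 mitotic members, which act in chromosome condensation, spindle assembly and exit from mitosis. Embryonic mouse axial skeleton was profiled with Visium, a method that reads polyadenylated RNA from frozen tissue laid over spots of known barcode. The study set out to map gene expression while the vertebral column and its discs form. One section 10 µm thick stands for each stage: embryonic day E11.5, day E12.5 and day E13.5. The stage of a section was read from its title, since its other labels give only the range of all 3. With 1 section a stage, no stage has a replicate, and stage and section cannot be told apart. Each spot is 55 µm across, with 100 µm between centres, and can hold several cells. The sources used here name neither strain nor genotype of the embryos, and no treatment.

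A dividing cell copies its DNA in S phase and separates the copies in mitosis. Cyclin E (Ccne1, Ccne2) with Cdk2 drives the entry into S phase. Cdc6 loads the helicase Mcm2 to Mcm7 onto replication origins, and Cdc45 and the GINS subunit Gins2 switch it on. Pcna is the sliding clamp of the DNA polymerases, and Rrm1, Rrm2 and Tyms make deoxynucleotides. Cdk1 with cyclins A and B (Ccna2, Ccnb1, Ccnb2) drives mitosis. Aurka, Aurkb, Plk1, Bub1 and Bub1b are mitotic kinases, Cenpa, Cenpe and Cenpf belong to the centromere and kinetochore, and Kif11, Kif20a, Tpx2 and Nusap1 act on spindle microtubules. Cdc20 and Ube2c mark mitotic proteins for destruction, Birc5 guides Aurkb, Top2a untangles chromosomes, and Mki67 coats them. Most S-type genes are targets of E2F factors. Many mitotic genes are switched on later through B-Myb and FoxM1, which act with the MuvB core at promoters with a CHR element and CCAAT boxes bound by NF-Y. In embryonic tissues progenitors cycle, while neurons and fused muscle fibres have left the cycle.

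The promoter letters of 5 members are shown. Kif11 and Ccnb2 had the smallest adjusted p values, with Ccnb1, in the comparison of Tubb3-high spots described below. Cdk1 holds all 3 kinds of letters searched, Ube2c is the most abundant member, and Mcm6 holds the most E2F matches of the 5. Each line gives the 250 bases before the start, 5′ to 3′ on the gene's own strand, from RefSeq on GRCm38.p6. Capitals mark the searched letters, namely TTTGAA or TTCGAA for the CHR, CCAAT for the CCAAT box and TTTGGCGC or TTTCGCGC for E2F, each on either strand.
Kif11, chr19:37376132-37376381, plus strand: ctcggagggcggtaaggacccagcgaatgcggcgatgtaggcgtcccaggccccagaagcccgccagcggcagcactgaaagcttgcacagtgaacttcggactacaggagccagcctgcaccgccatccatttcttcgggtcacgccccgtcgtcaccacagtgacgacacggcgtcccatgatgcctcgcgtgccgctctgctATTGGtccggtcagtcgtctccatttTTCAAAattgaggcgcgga
Ccnb2, chr9:70421555-70421804, minus strand: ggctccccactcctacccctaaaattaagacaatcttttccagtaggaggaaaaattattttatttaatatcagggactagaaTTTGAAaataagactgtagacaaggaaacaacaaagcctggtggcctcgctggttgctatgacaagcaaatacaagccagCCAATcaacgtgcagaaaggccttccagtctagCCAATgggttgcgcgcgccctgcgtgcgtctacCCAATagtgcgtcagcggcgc
Cdk1, chr10:69352913-69353162, minus strand: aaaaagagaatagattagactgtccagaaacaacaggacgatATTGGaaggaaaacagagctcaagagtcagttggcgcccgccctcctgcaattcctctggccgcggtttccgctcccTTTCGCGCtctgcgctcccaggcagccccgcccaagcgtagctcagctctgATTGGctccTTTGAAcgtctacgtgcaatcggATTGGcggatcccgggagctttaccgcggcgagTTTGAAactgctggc
Ube2c, chr2:164769679-164769928, plus strand: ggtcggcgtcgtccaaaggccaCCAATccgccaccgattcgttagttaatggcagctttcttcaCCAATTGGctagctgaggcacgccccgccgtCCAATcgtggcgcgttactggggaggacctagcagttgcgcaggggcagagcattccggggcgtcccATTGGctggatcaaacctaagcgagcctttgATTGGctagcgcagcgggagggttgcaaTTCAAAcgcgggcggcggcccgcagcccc
Mcm6, chr1:128359706-128359955, minus strand: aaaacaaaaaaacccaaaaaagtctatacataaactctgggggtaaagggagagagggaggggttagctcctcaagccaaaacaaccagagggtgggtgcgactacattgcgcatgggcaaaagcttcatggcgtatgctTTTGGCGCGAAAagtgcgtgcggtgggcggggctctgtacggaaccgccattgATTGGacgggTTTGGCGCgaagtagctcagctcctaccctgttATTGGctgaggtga
The Kif11 window holds CHR letters 19 bases before the start and a CCAAT box 45 bases before it. In Ube2c the CHR letters begin 29 bases before the start, and 6 CCAAT boxes lie upstream. The Cdk1 window has 2 CHR matches, 3 CCAAT boxes and 1 E2F match. In Mcm6 there are 3 E2F matches, and those 110 and 106 bases before the start overlap on opposite strands. Promoter windows were matched for 29 of the 36 members. CCAAT stood in 15 of 17 mitotic members (88.2%) and 9 of 12 S-type members (75%), against 37.5% of the 27025 genes in the promoter table. CHR letters stood in 8 of 17 mitotic members (47.1%) and 3 of 12 S-type members (25%), against 19.6% of genes. E2F letters stood in 2 of 12 S-type members (16.7%) and 1 of 17 mitotic members (5.88%), against 0.759% of genes. A match describes letters, not a bound site.

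Spots with at least 1000 UMIs (unique molecular identifiers, which count captured RNA molecules once) were sorted into tissue contexts by genes that are not members. T spots held at least 2 UMIs of T, the notochord gene also called Tbxt. Liver spots held at least 20 UMIs of Alb, Afp, Ahsg and Apoa2 per 10000. Col2a1-high, Sox2-high and Tubb3-high spots were the top 10% of a section by a cartilage, a neural progenitor and a neuron gene, and Myog-high spots the top 5% by a muscle gene, each with at least 2 UMIs of that gene. Spots in several of these 4 contexts were left out (13, 21 and 7 in order of stage), and spots in no context formed the rest. The sections held 1561, 1014 and 1360 such spots in order of stage, with 44358610, 25490744 and 28750314 UMIs and a median of 27048, 24385.5 and 20943.5 UMIs per spot. Barcodes recur between sections (434 to 704 per pair), and spots were therefore kept apart by section.

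The marker sums below leave out the gene that selected the spots, and are in CPM (UMIs per 1000000 UMIs of the context). The other 7 cartilage markers summed to 1029.4, 4966 and 18900.5 CPM in Col2a1-high spots in order of stage, against 152, 426 and 1211 CPM in the rest. Muscle markers other than Myog summed to 2186, 8152 and 13009 CPM in Myog-high spots, against 762, 820.9 and 4888 CPM. Neuron markers other than Tubb3 summed to 6645, 6935 and 3607 CPM in Tubb3-high spots, against 886, 750.6 and 151 CPM. These contexts therefore carried the markers of their name in each section. In T spots the notochord markers other than T summed to 666, 714 and 3833 CPM, against 51.1, 44.1 and 108 CPM. Noto, another notochord gene, was at 0 over all spots of each section and so does not separate T spots from the rest. Neural progenitor markers other than Sox2 reached 965 and 658 CPM in the Sox2-high spots of E11.5 and E12.5, against 222 and 149.8 CPM in the rest. In the Sox2-high spots of E13.5 they reached only 59.9 CPM against 156, while epithelial markers reached 474 CPM and Schwann and crest markers 536 CPM. Sox1, Pax6 and Olig2 were at 0 there. Sox1 and Olig2 were at 0 over all spots of that section, and Pax6 also in its Col2a1-high, T, Tubb3-high and Myog-high spots. At E13.5 the data therefore go against a neural progenitor reading, and Sox2-high stands there only for the level of Sox2. The top 10% of that section by Sox2 began at 0 UMIs, so that its 16 spots of 1360 were set by the minimum of 2 UMIs. The level of Tubb3 that admits a spot was 17.1 per 10000 at E11.5 and at E12.5 but 1.74 at E13.5. Further marker sums below hold all genes of a list.

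All 36 members were detected in each section. Together they made up 0.405%, 0.389% and 0.326% of UMIs in order of stage. The exact binomial 95% intervals of these shares lie within 0.003 percentage points and, like all intervals below, cover counting error only. UMIs count captured molecules and were not divided by gene length. Ube2c was the most abundant member in each section, at 319, 329 and 240 CPM in order of stage, and Ccne2 the least, at 13.8, 15.6 and 15.7 CPM. Capture can differ between transcripts, and the order of these levels describes captured molecules only. Over all deposited spots Ube2c, Pcna and Mki67 held the most UMIs (29434, 23218 and 21373). In the E11.5 section the helicase genes ran from 97.2 CPM (Mcm3) to 207 CPM (Mcm6), and the nucleotide genes Tyms, Rrm2 and Rrm1 stood at 94.5, 116 and 179 CPM. The mitotic cyclins Ccnb2, Ccna2 and Ccnb1 stood at 70.6, 96.0 and 111 CPM there, and their kinase gene Cdk1 at 155 CPM. The kinases Bub1, Aurkb, Bub1b, Aurka and Plk1 were all below 62 CPM in that section, and Birc5, Top2a and Cenpa above 213 CPM. Every spot held at least 1 member UMI. The middle of the spots lay between 0.334% and 0.534% at E11.5 (quartiles), between 0.308% and 0.507% at E12.5, and between 0.257% and 0.376% at E13.5. A share can be lower with fewer cycling cells, with less cell cycle RNA per cell or with more RNA of other genes. These cannot be told apart here.

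Spots rich in the neuronal tubulin Tubb3 held the lowest member share of every context. It was 0.133% of UMIs (95% interval 0.130 to 0.136) in the 147 spots of E11.5, 0.130% (0.125 to 0.134) in the 81 spots of E12.5 and 0.25% (0.243 to 0.256) in the 110 spots of E13.5. The rest of the same sections held 0.424%, 0.418% and 0.335%. The ratio to the rest was 0.314, 0.310 and 0.744, a mean log2 ratio of -1.26 ± 0.72 (SD, n = 3 sections). The first 2 stages lay close together, and E13.5 stood apart. Its Tubb3-high spots held neuron markers, Tubb3 included, at 4331 CPM against 8895 and 9132 CPM. Cartilage markers stood at 3319 CPM there against 148 and 279 CPM, and muscle markers at 1004 CPM against 35.1 and 86.1 CPM. The part of these differences in the higher E13.5 share was not tested. At a fixed Tubb3 level of 17 per 10000 only 6 spots of E13.5 qualified, too few to be summed.

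**Figure D1:**
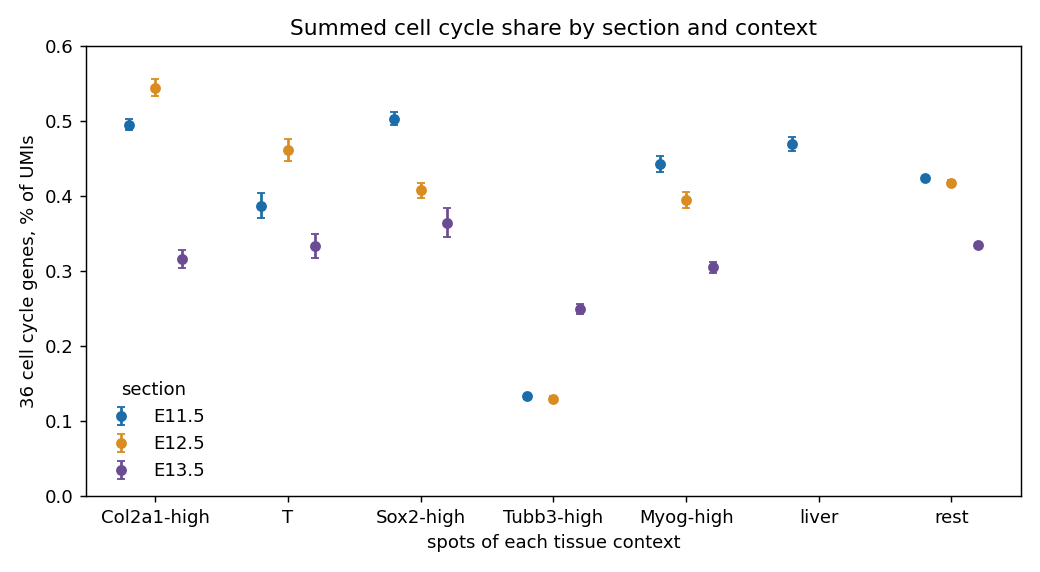
Summed share of the 36 cell cycle genes (y axis, % of UMIs) in each tissue context (x axis) and section (colour). Points are 1 section each and bars are exact 95% intervals for counting error. Tubb3-high points lie lowest in each section (0.133%, 0.130% and 0.25%). The E13.5 point lies above the other 2 in that context and lowest in the Col2a1-high, T, Sox2-high and Myog-high contexts and in the rest.

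Every member was lower in Tubb3-high spots. By the quasi-likelihood test of edgeR, with p-values adjusted after Benjamini and Hochberg, 36 of 36 members were lower and 0 higher than in the rest, beside 16.9% of the 12750 tested genes called lower and 17.8% called higher. At an unadjusted p under 0.05 the count was 36 members, beside 5777 of the 12750 genes tested. DESeq2 gave 36 members lower and 0 higher. The median log2 fold change was -1.32 over S-type members and -1.35 over mitotic members, against -0.04 over all genes tested. All 36 lay lower in 3 of 3 sections, which was not counted over all genes.

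Mitotic members with the smallest adjusted p were Kif11, Ccnb1, Ccnb2 and Aurkb. The spindle motor gene Kif11 measured 9.65, 8.86 and 16.1 CPM in Tubb3-high spots in order of stage, against 32.6, 39.0 and 29.6 CPM in the rest. The groups did not overlap, and the fold was smallest at E13.5 (log2 fold change -1.62, SE 0.23, edgeR adjusted p 0.00018). Cyclin B1 (Ccnb1) measured 35.7, 34.4 and 55.4 CPM against 115, 128 and 83.7 CPM (log2 fold change -1.42, edgeR adjusted p 0.000201). Its sister cyclin Ccnb2 measured 21.5, 21.3 and 46.1 CPM against 75.5, 92.3 and 70.6 CPM (-1.51, edgeR adjusted p 0.000476). The kinase gene Aurkb, at 14.5, 16.7 and 33.4 CPM against 51.3, 57.2 and 50 CPM, had an edgeR adjusted p of 0.000811. In each of these genes every Tubb3-high value lay below every value of the rest, and the E13.5 value was the highest of the Tubb3-high values.

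Among S-type members the smallest adjusted p belonged to Ccne1, Mcm7, Cdc6 and Mcm5. Cyclin E1 (Ccne1) measured 12, 14.9 and 38.9 CPM in Tubb3-high spots against 46.1, 53.6 and 74.0 CPM in the rest, with a log2 fold change of -1.55 (edgeR adjusted p 0.00113). The origin loader gene Cdc6 measured 6.58, 8.50 and 12.7 CPM against 25.1, 23.1 and 18 CPM (edgeR adjusted p 0.00206). The helicase subunit gene Mcm5 measured 48.5, 45.3 and 79.9 CPM against 161, 150 and 119 CPM (edgeR adjusted p 0.0023). Mcm7, another helicase subunit, had the smallest change of all 36 members, at 117, 106 and 106 CPM against 202, 180 and 139 CPM (log2 fold change -0.70, SE 0.13, edgeR adjusted p 0.00146). The other helicase genes changed more: Mcm3, Mcm4, Mcm5 and Mcm6 fell by 1.44, 1.39, 1.34 and 1.09 on the log2 scale, and Mcm2 by 1.01. The other members lay between Kif11 and Mcm7. Bub1 and Gins2 (-1.59 and -1.56) stood nearest to Kif11, followed by Birc5 (-1.54) and Kif20a (-1.52), while Pcna and Rrm1 (-1.02 and -1.03) stood nearer to Mcm7.

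These calls rest on the E11.5 and E12.5 sections. Without the E12.5 section 3 members stayed called lower (Ccnb1, Ccnb2 and Kif11). Without the E11.5 section 7 did, namely these 3 with Aurkb, Ccna2, Ccne1 and Cenpe. Without the E13.5 section all 36 did. The direction was lower for all 36 members in each of these fits, with a median log2 fold change of -1.15, -1.08 and -1.83.

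**Figure D2:**
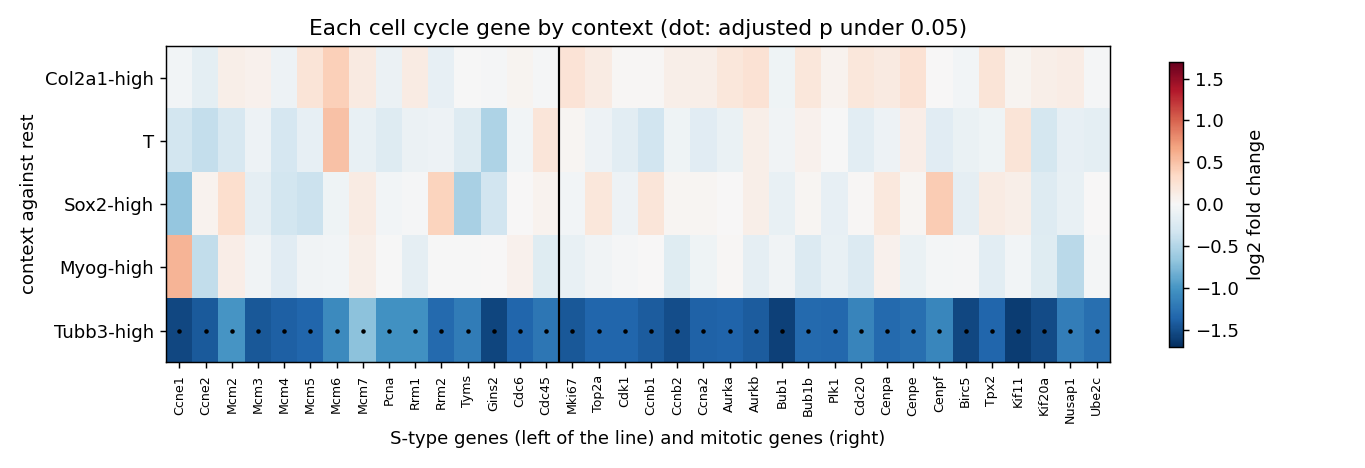
Log2 fold change (colour) of each of the 36 cell cycle genes (x axis, S-type left of the line, mitotic right) in 5 tissue contexts against the rest (y axis), from edgeR over 3 sections. Dots mark an edgeR adjusted p under 0.05; all 36 dots lie in the Tubb3-high row, where Mcm7 is the palest cell (-0.70).

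Most genes of the wider replication and mitotic lists were also lower in Tubb3-high spots. All list counts here stand beside 16.9% of all genes called lower and 17.8% called higher. Other replication genes were lower in 32 of 34, among them Rpa2 and Cdt1 (log2 fold changes -1.18 and -1.45), and 0 were higher. Other mitotic genes were lower in 38 of 44, among them Cks2, Incenp and Kif2c (-1.44, -0.92 and -1.49). Stmn1 was the 1 gene of that list called higher (1.52, edgeR adjusted p 7.39e-05), at 5475, 5279.9 and 1882 CPM against 1706, 1578 and 769 CPM. It codes for a microtubule-destabilising protein that is also abundant in neurons. Of the E2F, DREAM and MuvB factors 8 of 16 were lower, led by Foxm1 (-1.33), E2f7 (-1.67) and E2f8 (-1.61). Of the G1 cyclins and kinases 4 of 7 were lower, namely Ccnd3 (-1.7), Cdk2 (-1.52), Cdc25a (-0.69) and Cdk6 (-1.11). These counts too rest on single sections. Without E11.5 the genes called lower were 4 replication, 3 mitotic, 1 E2F-list and 1 G1 gene. In the same order of lists, leaving out E12.5 gave 2, 2, 0 and 1 genes. Leaving out E13.5 gave 34, 42, 11 and 7 genes. With only the Tubb3-high and rest sums in the fit they were 17, 26, 3 and 2, with overlapping spots kept 13, 22, 4 and 2, and with no replicate block 16, 29, 3 and 0.

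Cell cycle brakes did not share 1 direction. Cdkn2d, which codes for the Cdk4 and Cdk6 inhibitor p19, was the 1 brake called higher, at 148, 143 and 104 CPM in Tubb3-high spots against 65.2, 55.0 and 62.1 CPM in the rest (log2 fold change 1.06, SE 0.20, edgeR adjusted p 0.00143). Every Tubb3-high value lay above every value of the rest. Rbl1 (-1.18), Cdkn1a (-1.14) and Cdkn1c (-0.78), which code for p107, p21 and p57, were lower. The other 9 of 13 tested brakes did not pass the test. Counts of 1 higher and 3 lower stand beside 17.8% of all genes called higher and 16.9% called lower. They are too few to set the brakes apart from all genes. Of these 4 calls 1 was kept without E11.5, 0 without E12.5 and 4 without E13.5.

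When each section was split into 5 equal bins by Tubb3, the lowest share lay in the bin with the most Tubb3. The first 3 bins of E13.5 and the first of E12.5 held no Tubb3 UMI, so that their spots have no order there. At E11.5 the share was 0.471%, 0.459%, 0.450% and 0.454% in bins 1 to 4 and 0.204% in bin 5. At E12.5 it was 0.464%, 0.451%, 0.462% and 0.401%, then 0.206%. At E13.5 it was 0.342%, 0.324%, 0.342% and 0.330%, then 0.284%. The highest bin therefore held 0.433, 0.444 and 0.830 times the share of the lowest. From bin 4 to bin 5 neuron markers, Tubb3 itself included, went from 1386 to 6889 CPM in the first section. In the second they went from 1140.4 to 6852 CPM and in the third from 161 to 2390.4 CPM. Other cell types moved in that step as well. Erythroid transcripts went from 40860 to 16204 CPM and cartilage markers from 983 to 199.7 CPM at E11.5. At E12.5 they went from 19629 to 7733 CPM and from 1261 to 380.3 CPM. At E13.5 muscle markers went from 5956 to 1777 CPM and cartilage markers from 2669.7 to 5872 CPM. The part of these cell types in the lower share was not tested.

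**Figure D3:**
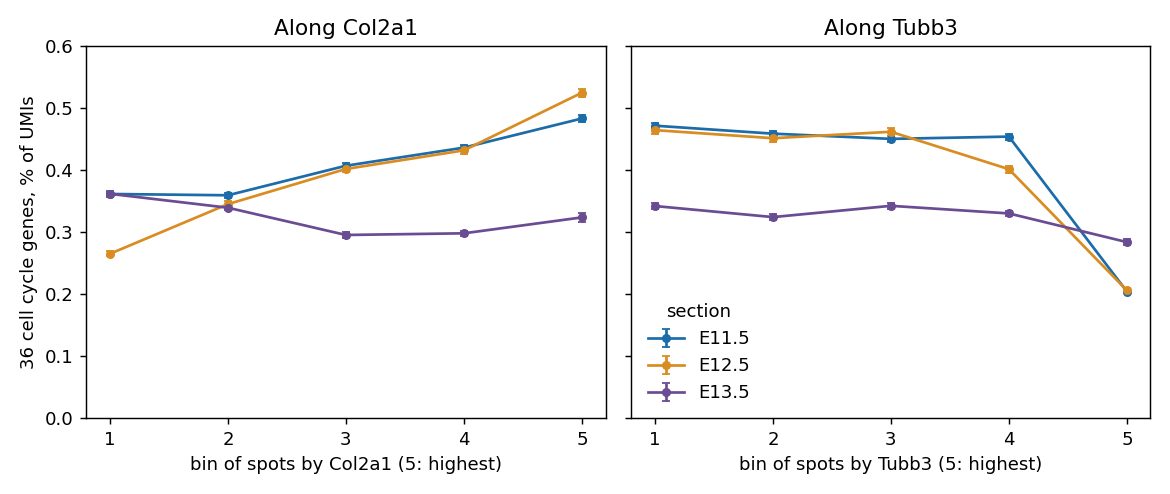
Summed share of the 36 cell cycle genes (y axis, % of UMIs) in 5 equal bins of spots ordered by Col2a1 (left) and by Tubb3 (right) within each section (colour). Bars are exact 95% intervals. Along Tubb3 the drop lies between bins 4 and 5 at E11.5 (0.454% to 0.204%), while along Col2a1 the E11.5 and E12.5 shares end higher than they start and the E13.5 share ends lower.

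At E11.5 and E12.5 Sox2-high and Tubb3-high spots set spots richer in neural progenitor markers beside spots richer in neuron markers. Each side also held markers of the other. Neuron markers in Sox2-high spots stood at 1293 and 2488 CPM at these stages, against 1175 and 953 CPM in the rest. Progenitor markers in Tubb3-high spots stood at 458 and 281 CPM, against 239 and 158 CPM in the rest. The members summed to 0.503%, 0.407% and 0.364% in Sox2-high spots, 3.78, 3.14 and 1.46 times the Tubb3-high share (mean log2 ratio 1.37 ± 0.73, SD, n = 3 sections). By edgeR's quasi-likelihood test 32 of 36 members were higher in Sox2-high spots and 0 lower, beside 5.76% of all genes called higher and 9.3% called lower. They were 12 of 15 S-type members and 20 of 21 mitotic members. Tyms, Ccne1, Gins2 and Nusap1 did not pass, with edgeR adjusted p of 0.118, 0.0695, 0.0514 and 0.0522. DESeq2 called 35 of 36.

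Among the mitotic members Ccnb1 had the smallest p in this comparison, at 155, 143 and 107 CPM in Sox2-high spots against the Tubb3-high values given above (log2 fold change 1.62, SE 0.21, edgeR adjusted p 0.00116). Kif11, Ccnb2 and Aurkb followed (1.71, 1.54 and 1.5). Among the S-type members Rrm2, the inducible subunit of ribonucleotide reductase, had the highest fold, at 217, 163 and 72.9 CPM against 30.9, 41.1 and 65.1 CPM (1.7, edgeR adjusted p 0.00419). Its groups lay far apart at E11.5 and E12.5 and close together at E13.5. Mcm7, Mcm2 and Rrm1 were also higher (0.84, 1.30 and 1.01). The count depends on single sections. Without E11.5 the fit called 0 members and without E12.5 it called 1 (Ccnb1). Without E13.5, whose Sox2-high spots held progenitor markers other than Sox2 below the level of the rest, it called all 36. Without the section block it called 18.

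The other lists differed in how many genes passed, beside 5.76% of all genes called higher and 9.3% called lower. Higher in Sox2-high than in Tubb3-high spots were 40 of 44 other mitotic genes, led by Prc1, Cdca8 and Ect2 (1.80, 1.46 and 2.10), while Stmn1 was lower (-1.28). So were 21 of 34 other replication genes, among them Rfc4 and Rpa2 (1.13 and 1.12). Of the E2F, DREAM and MuvB factors 8 of 16 were higher, led by Foxm1, E2f5 and E2f2 (1.61, 1.43 and 1.7), and of the G1 genes 2 of 7, Cdk4 (0.54) and Cdk6 (1.44). Of 13 brakes 8 did not pass, and the median was 0.23. Btg2, Gadd45g, Rbl1 and Cdkn2c were higher (1.84, 1.84, 1.09 and 1.68) and Cdkn2d lower (-0.88). Without E11.5 0 genes of these 5 lists were called, and without E12.5 the genes called were 3 higher and 1 lower among mitotic genes, 1 replication gene and 1 brake. Without the section block 18 mitotic, 5 replication, 1 E2F-list, 1 brake and 0 G1 genes were called.

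Set against the rest, no member passed the test in Sox2-high spots. The share was 1.19, 0.975 and 1.08 times that of the rest in order of stage (mean log2 ratio 0.11 ± 0.14, SD, n = 3 sections). By edgeR 0 members were higher and 0 lower, beside 2.95% and 2.19% of all genes. DESeq2 also called 0, and 2 members had an unadjusted p under 0.05, beside 2699 of the 12750 genes tested. The 2 members were Ccne1 and Tyms, with log2 fold changes of -0.65 and -0.55 and edgeR adjusted p of 0.207 and 0.220. Without E13.5 the fit called Rrm2 higher (0.57) and Tyms lower (-0.66). Of the other lists 5 genes passed, all of them only with both the E11.5 and the E12.5 section in the fit. Btg2, an antiproliferative gene, measured 113, 102 and 52.1 CPM against 20.5, 19.1 and 23.5 CPM (1.98, edgeR adjusted p 0.000742). Gadd45g measured 407, 387 and 49.5 CPM against 68.8, 58.5 and 47.9 CPM (2.02, edgeR adjusted p 0.0188), with almost no gap at E13.5. Cyclin D3 (Ccnd3) was lower, at 128, 109 and 221 CPM against 247, 219 and 369 CPM (-1.03, edgeR adjusted p 0.042). Among other mitotic genes Racgap1 and Cdc25b were higher (0.69 and 1.32), Cdc25b in 2 of 3 sections. Without E11.5 the adjusted p of these 5 genes ran from 0.123 (Btg2) to 0.411 (Cdc25b), and without E12.5 from 0.135 (Btg2) to 0.589 (Cdc25b). Without E13.5 all 5 passed. With no replicate block Btg2 alone passed (edgeR adjusted p 0.0232).

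Cartilage-rich spots held the highest share at E12.5 and a low one at E13.5. Col2a1 codes for the main collagen of cartilage. Its high spots held a member share of 0.495% (0.488 to 0.503) in 141 spots at E11.5, 0.544% (0.533 to 0.556) in 79 spots at E12.5 and 0.316% (0.304 to 0.328) in 120 spots at E13.5. The ratio to the rest was 1.17, 1.30 and 0.942 (mean log2 ratio 0.17 ± 0.24, SD, n = 3 sections), so that E13.5 lay on the other side of equality. The E13.5 spots were shallow, with a median of 5032.5 UMIs against 22013 in the rest of that section. By edgeR 0 of 36 members were higher and 0 lower, beside 0.925% and 1.29% of all genes. DESeq2 called 0, and 0 members had an unadjusted p under 0.05, beside 2282 of the 12750 genes tested. The median log2 fold change was -0.01 over S-type and 0.10 over mitotic members, against -0.05 over all genes.

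Single members in Col2a1-high spots spread from -0.16 (Ccne2) to 0.41 (Mcm6). Mcm6 measured 321, 281 and 188 CPM against 207, 189 and 152 CPM in the rest, higher in 3 of 3 sections, but did not pass (SE 0.27, edgeR adjusted p 0.457). Ube2c, the most abundant member, measured 375, 442 and 203 CPM against 337, 353 and 250 CPM, above the rest in the first 2 stages and below it in the third. Of the other cell cycle lists 0 genes passed. The nearest was Cdkn1a, at 3.8, 5.03 and 18.7 CPM against 6.16, 14.5 and 47.5 CPM (-1.29, edgeR adjusted p 0.060).

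Along 5 bins of Col2a1 the share ran upward at E12.5 without a break, from 0.265% through 0.345%, 0.402% and 0.432% to 0.525%. At E11.5 it was 0.361%, 0.359%, 0.407%, 0.436% and 0.483%. At E13.5 it was 0.362%, 0.339%, 0.295%, 0.298% and 0.324%, with the lowest values in the middle. The highest bin held 1.34, 1.98 and 0.895 times the share of the lowest in order of stage. Other cell types moved along the same axis. Neuron markers summed to 2992 CPM in the lowest and 742 CPM in the highest bin at E11.5, to 3698 and 396 CPM at E12.5, and to 249 and 245 CPM at E13.5. Skeletal muscle markers were at 5146 and 1371 CPM in these bins at E13.5. Their part in the trend was not tested.

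No member passed the test in T spots, the notochord context. They held 0.387% (0.370 to 0.405) in 22 spots at E11.5, 0.461% (0.447 to 0.476) in 36 spots at E12.5 and 0.333% (0.318 to 0.349) in 45 spots at E13.5. The ratio to the rest was 0.914, 1.10 and 0.993, with no common direction. By edgeR 0 members were higher and 0 lower, beside 0.259% and 0.00784% of all genes, and DESeq2 called 0. An unadjusted p under 0.05 was found for 0 members, beside 1084 of the 12750 genes tested. The members spread from -0.52 (Gins2, adjusted p 0.794) to 0.50 (Mcm6, adjusted p 0.666). Mcm6 measured 353, 261 and 224 CPM in T spots against 207, 189 and 152 CPM in the rest, above it in 3 of 3 sections. With only the T and rest sums in the fit it passed (0.51, edgeR adjusted p 0.0204), and with all contexts sharing 1 estimate of the spread it did not. A T spot also holds other cells, since cartilage markers summed to 3654, 8785 and 17264 CPM there.

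Myog codes for a transcription factor that starts muscle differentiation. The spots high in Myog held a member share of 0.442%, 0.395% and 0.305% in 52, 50 and 67 spots, 1.04, 0.945 and 0.910 times the rest (mean log2 ratio -0.05 ± 0.10, SD, n = 3 sections). By edgeR 0 members were higher and 0 lower, beside 0.973% and 0.235% of all genes, and DESeq2 called 0. At an unadjusted p under 0.05 there was 1 member, beside 1572 of the 12750 genes tested. This was Ccne1, at 59.7, 87.3 and 111 CPM against 46.1, 53.6 and 74.0 CPM (0.58, SE 0.27, edgeR adjusted p 0.401). It lay above the rest in 3 of 3 sections, and with only the Myog-high and rest sums in the fit it passed (0.64, edgeR adjusted p 0.0399). Of the brakes Cdkn1a, which codes for p21, was higher, at 29.9, 129 and 144 CPM against 6.16, 14.5 and 47.5 CPM (2.39, SE 0.27, edgeR adjusted p 0.00219). It was the 1 brake called and lay above the rest in each section, but the call needs the first 2 sections. Without E11.5 the adjusted p was 0.0514, without E12.5 it was 0.199, and with no replicate block it was 0.9998. The Myog level that admits a spot was 0.376 per 10000 at E11.5, against 6.46 and 8.23 later, and muscle markers were lowest in the first section.

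Liver spots, which hold blood-forming cells at this age, were numerous only at E11.5 (53 spots; 8 at E13.5 and 0 at E12.5). They held a member share of 0.469% (0.460 to 0.479), 1.11 times the rest of that section. The S-type part was 1.22 times the rest (1.18 to 1.26) and the mitotic part 1.03 times (0.996 to 1.06). With 1 section there is no test, and a member was counted at a CPM ratio of at least 1.5. Past that ratio 2 members were higher and 0 lower, beside 7.82% of genes higher and 39.9% lower. Cdc6 measured 50.7 against 25.1 CPM (ratio 2.02, 1.61 to 2.5) and Ccne1 88.0 against 46.1 CPM (1.91, 1.61 to 2.25). Mki67 followed, at 402 against 268 CPM (1.499, just under the threshold), and Mcm5, at 221 against 161 CPM. At the other end lay Kif20a (0.684), Cenpf (0.691), Bub1 (0.745) and Cdc20 (0.763). The median ratio was 1.2 over S-type and 0.938 over mitotic members, against 0.752 over all genes. Erythroid transcripts took up 114936 CPM in liver spots against 47261 CPM in the rest. With globin, mitochondrial and ribosomal protein genes left out of the total, which raises every ratio by 0.23 on the log2 scale, the share ratio was 1.29 and 8 members were past 1.5. The other lists did not share 1 direction, and their counts stand beside the same 7.82% of genes higher and 39.9% lower. Among G1 genes 3 of 7 were lower and 0 higher, Ccnd2 most (0.313), and among brakes 5 of 13 were lower and 0 higher, Btg1 most (0.365). E2F, DREAM and MuvB factors had 5 higher, among them E2f2 (1.97) and E2f8 (1.7), and 2 lower, Foxm1 (0.598) and E2f5 (0.642). Other mitotic genes had 3 higher and 6 lower of 44, and other replication genes 2 higher, Cdt1 (1.77) and Fen1 (1.6), and 0 lower of 34.

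Between the stages the share over all spots was 0.960 times as high at E12.5 as at E11.5 and 0.803 times as high at E13.5 as at E11.5. Comparisons with E11.5 share that section. Past a ratio of 1.5 at E12.5 were 0 members higher and 0 lower, beside 17.9% and 6.2% of genes. At E13.5, 1 member was higher and 1 lower, beside 24.6% and 13.4% of genes. Ccne1 was higher, at 44.8, 50.6 and 71.6 CPM in order of stage (ratio of E13.5 to E11.5 1.597, 1.501 to 1.6996), and Bub1 lower, at 41.1, 38.0 and 25.7 CPM (0.627, 0.575 to 0.683). Next to Bub1 lay Mcm7 (0.671), Cenpf (0.693) and Aurka (0.709), and below Ccne1 came Ccne2 (1.14), Cdk1 (1.12) and Gins2 (1.02). The member median was 0.789, against 1.06 over all genes tested. Of the brakes Cdkn1a, Cdkn1c, Cdkn2c, Rb1 and Rbl2 were past 1.5 at E13.5 (7.89, 2.44, 3.58, 1.87 and 2.36), and Gadd45g was lower (0.545). Skeletal muscle markers were also higher in the rest of E13.5 (5132 CPM against 764), and their part in the brakes was not tested.

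Within contexts the stage ratios ran in different directions, and the difference between contexts was not tested. In Col2a1-high spots the share was 0.638 times as high at E13.5 as at E11.5 (0.613 to 0.665), with 18 of 36 members past 1.5 lower and 0 higher, beside 20.7% of genes lower and 20.4% higher. These were 9 S-type and 9 mitotic members. Markers differed between these spots as well. From E11.5 to E13.5 cartilage markers, Col2a1 included, went from 3834 to 50563 CPM and muscle markers from 96.6 to 1390.2 CPM. Neuron markers went from 804 to 166 CPM and erythroid transcripts from 27681 to 3109.6 CPM. The part of these changes in the ratios was not tested, nor was that of the lower depth of the later spots (median 5032.5 against 21546 UMIs). Mcm4 measured 143, 146 and 56.0 CPM in order of stage, so that the drop lay after E12.5 (ratio of E13.5 to E11.5 0.392, 0.285 to 0.529). Bub1 (0.404), Cenpf (0.420) and Aurka (0.473) followed. Ccnb2, Cdc20, Ccna2 and Kif11 lay at the other end (0.95, 0.936, 0.872 and 0.848), each with an interval that includes 1. From E11.5 to E12.5 the share in these spots was 1.10 times as high, with 2 members higher and 0 lower, beside 14.6% and 6.65% of genes. Those were Cdc45 (1.68) and Ccne2, at 13.3 and 21.4 CPM. The brake Cdkn1c, which codes for p57, measured 614, 1029.5 and 1629.5 CPM in Col2a1-high spots (2.65), while the kinase gene Cdk4 was lower at E13.5 (0.519).

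In Tubb3-high spots the stage difference ran the other way. The share was 1.88 times as high at E13.5 as at E11.5 (1.81 to 1.94), with 32 of 35 members past 1.5 higher and 0 lower, beside 28.3% and 16.6% of genes. Gins2 measured 12.3 against 42.7 CPM (3.48), Mcm3 20.6 against 70.6 CPM (3.42), Bub1b 12.1 against 40.1 CPM (3.33) and Ccne1 12 against 38.9 CPM (3.11). Mcm7 (0.904), Bub1 (1.26), Mcm2 (1.36) and Ube2c (1.505) lay lowest. The Tubb3 level and the neuron markers given above were lower in the E13.5 spots, and their part in these ratios was not tested. In Myog-high spots the share was 0.690 times as high at E13.5 as at E11.5. Of 35 members 17 were past 1.5 lower and 1 higher, beside 18% and 14.7% of genes. Ccne1 was the 1 higher (1.85), followed by Cdk1, Ccnb2 and Ccna2 (1.03, 0.924 and 0.877), and Cenpe, Mcm7, Mcm6 and Aurkb lay lowest (0.410, 0.493, 0.537 and 0.560). Muscle markers, Myog included, went from 2465 to 13992.5 CPM and neuron markers from 505 to 64.2 CPM in these spots, and their part was not tested either.

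The smaller contexts and the rest complete the picture by stage. In Sox2-high spots the share was 0.723 times as high at E13.5 as at E11.5, with 1 member higher and 9 lower, beside 20% and 23.2% of genes. Rrm2 lay lowest (0.335), then Plk1 (0.450), Cenpf (0.469) and Mcm5 (0.486), and the 1 higher was Ccne2, at 16.6 and 31.2 CPM. Some of these counts were small, with 43 and 12 UMIs for Ccne2 and 195 and 13 for Plk1 at E11.5 and E13.5. Progenitor markers, Sox2 included, were at 1299 CPM in the earlier and 187 CPM in the later of these spots. Their part in the ratios was not tested. At E12.5 the Sox2-high share was 0.810 times that of E11.5, with 0 members higher and 4 lower, beside 19.7% and 4.27% of genes. These were Mcm6 (0.535), Gins2 (0.645), Bub1 (0.646) and Mki67 (0.652). In T spots 0 of 27 members were higher and 3 lower at E13.5 than at E11.5, beside 17.9% and 12.4% of genes. These were Mcm7 (0.519), Mcm4 (0.599) and Mcm6 (0.635), a count near the share over all genes. In T spots of E11.5 and E13.5 Mcm7 held 115 and 62 UMIs, Mcm4 53 and 33, and Mcm6 179 and 118. At E12.5, 5 of 33 were higher in T spots and 0 lower, beside 18.6% and 4.98% of genes. They were Ccne1, Mcm3, Kif11, Mcm5 and Tyms (1.88, 1.69, 1.63, 1.53 and 1.52), with 17, 41, 16, 64 and 39 UMIs at E11.5. In Tubb3-high spots 0 of 35 were higher and 1 lower at E12.5, beside 14.6% and 2.85% of genes. That 1 was Bub1, at 14 and 7.09 CPM (64 and 20 UMIs). In Myog-high spots 0 of 35 were higher and 3 lower at E12.5, beside 12.7% and 9.34% of genes, namely Nusap1 (0.547), Cenpe (0.551) and Cdc6 (0.623). The rest holds most UMIs of each section (29868381 of 44358610 at E11.5), so its counts are no second observation beside those over all spots. In the rest of E13.5 Ccne1 was the 1 member higher (1.61) and Bub1 the 1 lower (0.606), beside 23.5% and 12.3% of genes. At E12.5 there were 0 and 0, beside 16.9% and 7.23%.

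**Figure D4:**
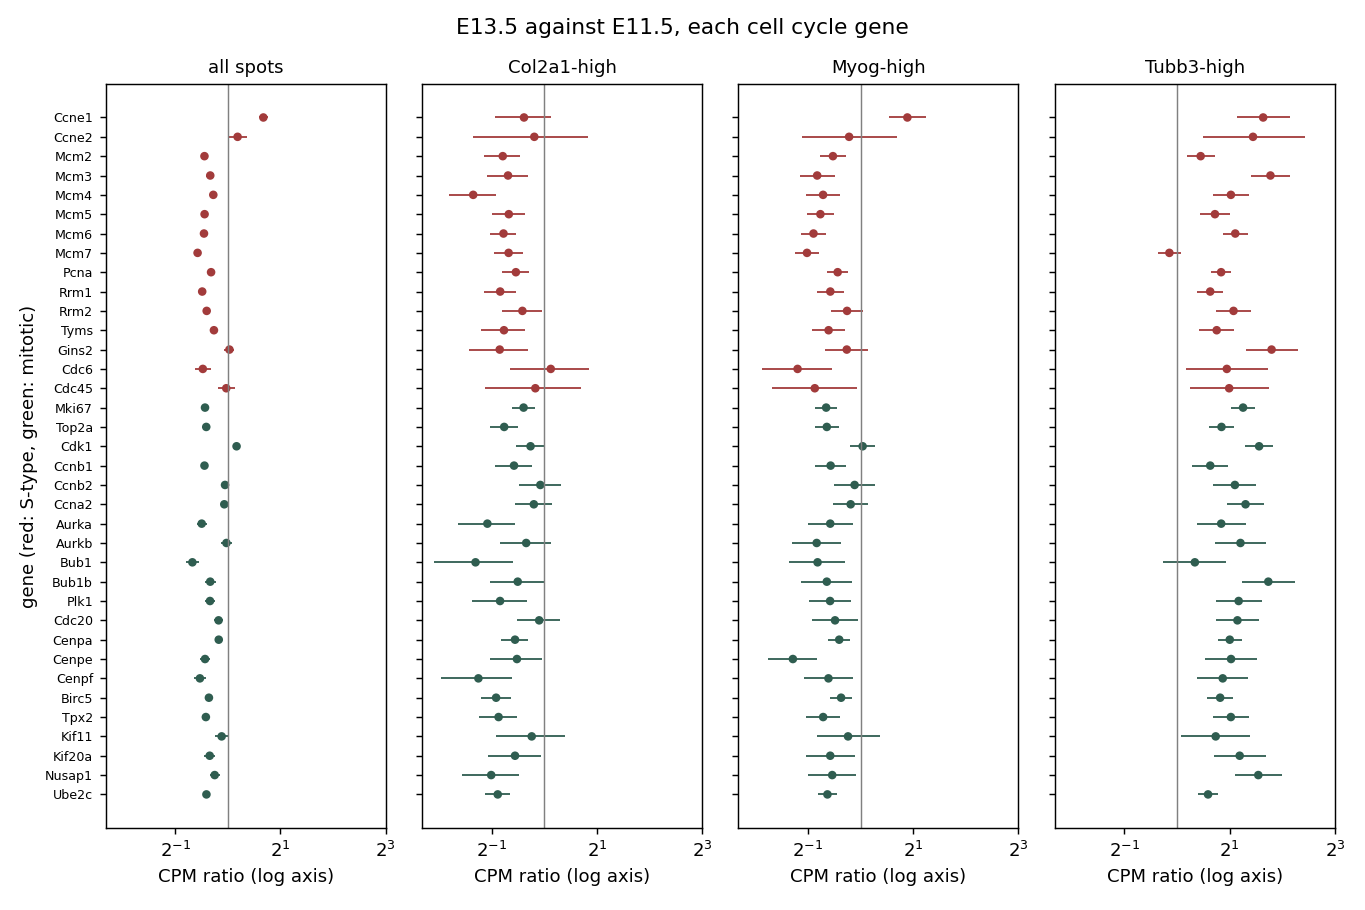
Ratio of CPM at E13.5 to E11.5 (x axis, log scale) for each cell cycle gene (y axis, red S-type, green mitotic) over all spots and within 3 contexts, 1 section a stage. Bars are exact 95% intervals for counting error. Col2a1-high points lie mostly below 1 (18 of 36 past 1.5 lower) and Tubb3-high points above it (32 of 35 past 1.5 higher), while Ccne1 lies above 1 in all spots, Myog-high and Tubb3-high spots.

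The balance of S-type to mitotic UMIs varied less than the summed share. Over all spots the ratio of S-type to mitotic UMIs was 0.732, 0.698 and 0.707 in order of stage. Tubb3-high spots had the highest ratio of the contexts fitted in each section, at 0.877 (0.833 to 0.923), 0.903 (0.846 to 0.964) and 0.752 (0.714 to 0.792). At E13.5 that interval includes the value of Myog-high spots (0.739). Against the rest the mitotic share was 0.287, 0.276 and 0.724 times as high in Tubb3-high spots and the S-type share 0.351, 0.360 and 0.771 times. The log2 difference between the 2 parts was 0.26 ± 0.15 (SD, n = 3 sections), in the same direction in 3 of 3 sections. Summed UMIs weigh abundant members most, and the median log2 fold changes over members were close (-1.32 S-type and -1.35 mitotic). Mcm7, the least changed member, held 535 of the 2834 S-type UMIs in Tubb3-high spots of E11.5. The part of single members in this difference was not tested. Sox2-high spots had ratios of 0.729, 0.621 and 0.631, and Col2a1-high spots 0.717, 0.698 and 0.673, close to the rest (0.717, 0.692 and 0.706). In T spots the ratio was 0.786, 0.704 and 0.640, and in Myog-high spots 0.776, 0.713 and 0.739. Liver spots of E11.5 reached 0.854 (0.818 to 0.890). No p is given for these sums over chosen members.

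**Figure D5:**
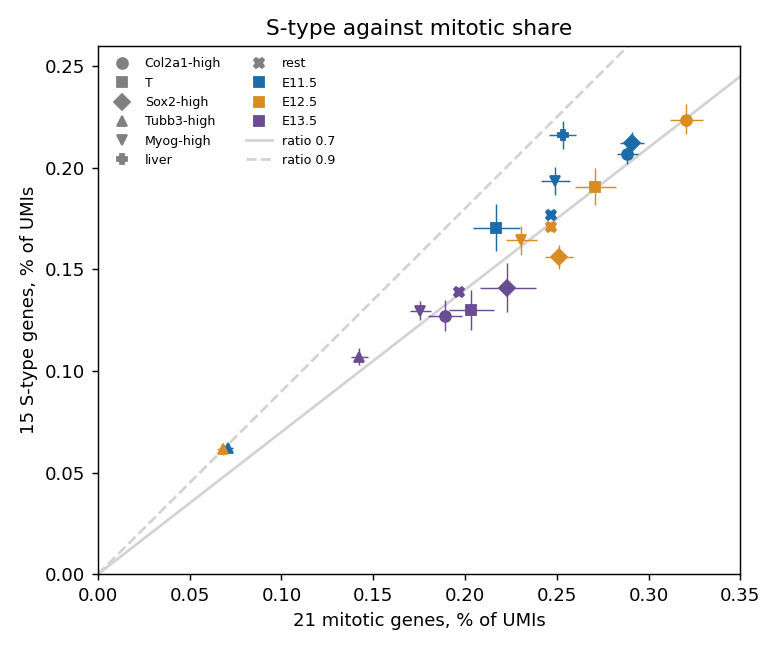
Share of the 15 S-type genes (y axis, % of UMIs) against the 21 mitotic genes (x axis, % of UMIs), with 1 point for each context (marker) and section (colour) and exact 95% intervals. Grey lines mark S-type to mitotic ratios of 0.7 and 0.9. Most points lie along the lower line, while the Tubb3-high points of E11.5 and E12.5 (0.877 and 0.903) and the liver point (0.854) lie near the upper one.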

How the data were processed

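Per the file headers the deposited values are raw counts of UMIs in each spot, which the authors obtained with Space Ranger 1.2.0. STAR and mm10 are named in the submitters' processing notes. The rule that selected spots is not given in the sources used here. The members and lists were chosen with earlier results of these data known. For contexts, UMIs of spots with at least 1000 UMIs were summed per section and context (at least 10 spots) into 18 sums and tested with edgeR 4.0.16 (filterByExpr, TMM, quasi-likelihood, section as block, R 4.3.3), with p-values adjusted over 12750 genes. The section is the block because contexts of a section share tissue. The scatter is over 3 sections of different stages, so that p-values do not measure spread between embryos. In simulated data over 12750 genes the Tubb3-high comparison recovered 56% of 2-fold and 93% of 4-fold changes (3.87% false among called), and the Col2a1-high comparison 49% and 87% (4.23% false). The simulation changed 100 genes by each fold, over the same expected profile in every section. In the data 16.9% of genes were called lower and 17.8% higher in Tubb3-high spots, so these rates do not measure the real calls. Stages and liver spots were compared by CPM ratios with exact conditional 95% intervals, a threshold of 1.5 and at least 50 UMIs over both sums. Named genes were, per comparison and list, up to 4 members and up to 3 genes of other lists (4 brakes) with the smallest adjusted p, and between stages the 4 highest and 4 lowest members with at least 100 UMIs; others were named after their values were seen. Alternatives included DESeq2 1.42.0, RLE size factors and left-out sections. No doublet caller was run, since a spot is not a cell.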

Additional observations from a re-analysis of the deposited data

Results flagged for a closer look

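The summed share of the 36 cell cycle genes lay above the rest in some sections and below it in others within the same context, with counting intervals on either side of equality. For Col2a1-high spots the ratio to the rest was 1.17, 1.30 and 0.942 in order of stage (E11.5 to E13.5). For T spots it was 0.914 at E11.5 and 1.10 at E12.5. For Sox2-high spots it was 1.19, 0.975 and 1.08, and for Myog-high spots 1.04, 0.945 and 0.910. Each stage holds 1 section, and the difference between sections was not tested.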

How the results depend on the processing

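All 36 members were lower in Tubb3-high spots than in the rest, and higher in Sox2-high than in Tubb3-high spots, in each of 14 settings. With no replicate block the counts called were 34 and 18, against 36 and 32 with it. With a section left out, the count lower in Tubb3-high spots ran from 3 to 36, the count higher in Sox2-high against Tubb3-high spots from 0 to 36, and the counts higher and lower in Sox2-high spots against the rest from 0 to 1 each. With only the 2 contexts compared, or with overlapping spots kept (also fitted on 2 contexts), 1 member was higher in T spots (Mcm6) and 1 in Myog-high spots (Ccne1). With halved context shares the mean log2 ratio of the Sox2-high share to the rest was 0.28. RLE size factors moved the median of all genes by at most 0.06 on the log2 scale.

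Without globin, mitochondrial and ribosomal protein genes, the share ratio of E13.5 to E11.5 was 0.752 over all spots (0 members higher, 4 lower) and 0.578 in Col2a1-high spots. That of E12.5 to E11.5 was 0.881 over all spots (1 lower) and 1.01 in Col2a1-high spots (1 higher), and that of liver spots to the rest 1.29 (8 higher). At a fold of 2, E13.5 against E11.5 left 0 members higher and 0 lower over all spots, 5 lower in Col2a1-high spots, 19 higher in Tubb3-high spots, and 0 higher and 3 lower in Myog-high spots. It left 0 higher at E12.5 in Col2a1-high spots and 1 higher in liver spots. With at least 5000 UMIs per spot the highest Tubb3 bin of E12.5 held 0.460 times the share of the lowest. The cause of these moves was not tested. A changed total moves every ratio by a common factor. A left-out section leaves fewer sections in the fit, the same number whichever is left out. The count lower in Tubb3-high spots was 7 without E11.5, 3 without E12.5 and 36 without E13.5. It therefore differed with the section left out, and the part of the smaller number of sections was not tested. Chosen after seeing the data, a fixed Tubb3 level of 17 per 10000 gave shares of 0.133% in 149 spots of E11.5 and 0.130% in 82 spots of E12.5, and 36 members lower. Low depth limits the E13.5 Col2a1-high and T spots (median 5032.5 and 8306 UMIs) and Ccne2, Cdc6 and Cdc45 in small contexts.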
